A study of Mus musculus with 2 samples.

Results

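The core genes of the circadian clock were examined in pancreatic islets of transgenic mice overexpressing miR-141 and miR-200c and of control mice. The members were chosen by name, as every probe set whose only gene symbol in the platform's annotation was Arntl (also called Bmal1), Clock, Npas2, Per1, Per2, Per3, Cry1, Cry2, Nr1d1 or Dbp. All 10 genes were found, with 23 of the 34945 probe sets that carried a single symbol, and 10 of 18193 genes. The transgenic sample came from male mice aged 6 weeks with the genotype miR-141/200c_overexpression, and the control sample from male mice aged 6 weeks labelled Bl6_control. Sample titles call them Ripmir_islets and C57Bl6_islets, and neither was treated after islet extraction. The labels give the cell source as beta cells and the tissue as islets. They do not give the promoter of the transgene, the number of transgenic lines or of mice in a sample, or the strain background of the transgenic mice. The mice lived in a light cycle of 12 h light and 12 h dark, and the hour of collection is not given. Total RNA was hybridised to Affymetrix mouse arrays, 1 array per genotype (n = 1). Without replicates there is no error and no test for any value, and higher and lower describe these 2 arrays.

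The clock is a loop of transcription that runs in nearly every cell of the body. The protein products of Arntl and of Clock, or of its relative Npas2, form a pair that binds E-box sequences and activates the Per and Cry genes, whose products then inhibit the pair. The same pair activates Nr1d1, which encodes the repressor REV-ERB alpha, and Dbp, which encodes an output factor that binds D-box sequences. REV-ERB alpha competes with the ROR activators at ROR elements and thereby represses Arntl. In peripheral tissues Arntl and Npas2 transcripts peak at about the opposite time of day from those of Nr1d1, Dbp and the Per genes. Islets hold such a clock, which is known to time insulin secretion.

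The microRNAs that the transgenic mice overexpress are shown with their seeds (bases 2 to 8) in capitals, because the seed largely decides which messenger RNAs a microRNA can pair with. The mature sequences are those of RefSeq, and both lie on the minus strand of GRCm38.p6, at chr6:124717917-124717938 and chr6:124718324-124718346. Of the named probe sets 0 carry the symbol of either microRNA gene, so the overexpression was not checked here.
mmu-miR-141-3p: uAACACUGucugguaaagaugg
mmu-miR-200c-3p: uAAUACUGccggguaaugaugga

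Promoter windows of RefSeq (GRCm38.p6), each 300 bases long with 250 before the gene start, were matched by symbol for 9 of the 10 members, all but Per2, in 13 windows. They were searched on both strands for the E-box as CACGTG or CACGTT, the D-box as TTATGTAA or TTACGTAA, the ROR element as TAGGTCA or TGGGTCA, and the cAMP response element as TGACGTCA. Of 32851 windows in the table, 11.4% held either form of the E-box, 1.06% of the D-box, 6.45% of the ROR element and 1.79% the cAMP response element. The letters of a ROR element can overlap those of other nuclear receptor sites. A match is a description of these letters and shows no binding. Stretches with a match are shown 5′ to 3′ in the gene's direction with the match in capitals. They are shown because the loop is known to act through elements of these kinds.
Arntl, + strand, chr7:113207530-113207559: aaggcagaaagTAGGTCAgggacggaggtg
Per1, + strand, chr11:69098743-69098828: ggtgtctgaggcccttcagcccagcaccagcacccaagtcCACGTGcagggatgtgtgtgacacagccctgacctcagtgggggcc
Per3, - strand, chr4:151044776-151044910: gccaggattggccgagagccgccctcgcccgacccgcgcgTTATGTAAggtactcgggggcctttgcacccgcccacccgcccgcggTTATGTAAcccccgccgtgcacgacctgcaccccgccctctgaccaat
Cry1, - strand, chr10:85185069-85185173: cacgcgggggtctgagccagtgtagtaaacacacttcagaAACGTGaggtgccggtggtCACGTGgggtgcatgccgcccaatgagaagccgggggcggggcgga
Cry2, - strand, chr2:92434190-92434275: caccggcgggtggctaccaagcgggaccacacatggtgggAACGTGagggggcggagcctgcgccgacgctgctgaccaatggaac
Nr1d1, - strand, chr11:98775378-98775445: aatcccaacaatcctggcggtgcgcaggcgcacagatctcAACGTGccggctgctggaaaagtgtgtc

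E-box letters stood in the windows of 4 members, Per1, Cry1, Cry2 and Nr1d1. AACGTG in capitals is CACGTT read on the opposite strand. The Cry1 window held both forms, starting 79 and 60 bases before the gene start. Per3 was the only member with D-box letters, which it held at 2 places, 205 and 158 bases before its start. The ROR element of Arntl lay 30 bases after the second of its annotated gene starts. The windows of Clock, Npas2 and Dbp held none of the searched letters, and no member's window held the cAMP response element.

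**Figure D1:**
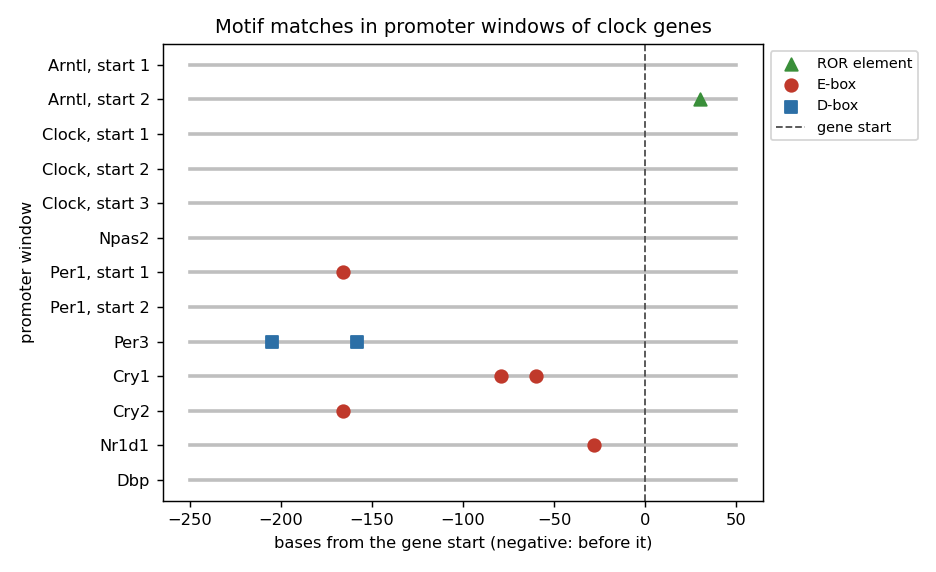
Positions of motif matches in the 13 promoter windows of 9 clock genes, in bases from the gene start, with a row for each annotated start. Circles mark E-box letters, squares D-box letters and the triangle a ROR element, and 6 of the 9 genes hold at least 1 match.

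Values are log2 RMA values per probe set, and a difference is always the transgenic minus the control value. A gene is represented by its brightest probe set, by the mean over both arrays, and its other probe sets are given beside it. A gene was kept when at least 1 array reached a floor of 5.76, where the middle of all values on the arrays lies, which stands in for a detection call that these values lack. Probe sets differ in their affinity, so levels are compared between the arrays for the same probe set and the genes are not put in order of level. All 10 members were kept. Npas2 was kept through its transgenic value alone, so its difference is tied to the way it passed the floor.

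The clock genes did not move together in one direction. At the 2-fold rule, a log2 difference of 1, Npas2 was the only member past it on the higher side and no member was past it on the lower side. Over all 12143 kept genes 2.51% passed it on the higher and 0.511% on the lower side. At a 1.5-fold rule Arntl and Npas2 were higher and Cry1 was lower, against 7.73% and 3.14% of all kept genes. Arntl was at the edge of this rule, at 1.502-fold. Its log2 difference of 0.587 fell to 0.549 after a second quantile normalization and to 0.483 with its probe sets averaged, both under the rule. Of the 10 differences 5 were above 0 and 5 below, with a median of -0.0087. Among all kept genes 54.2% of differences were above 0, and their median was 0.029.

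**Figure D2:**
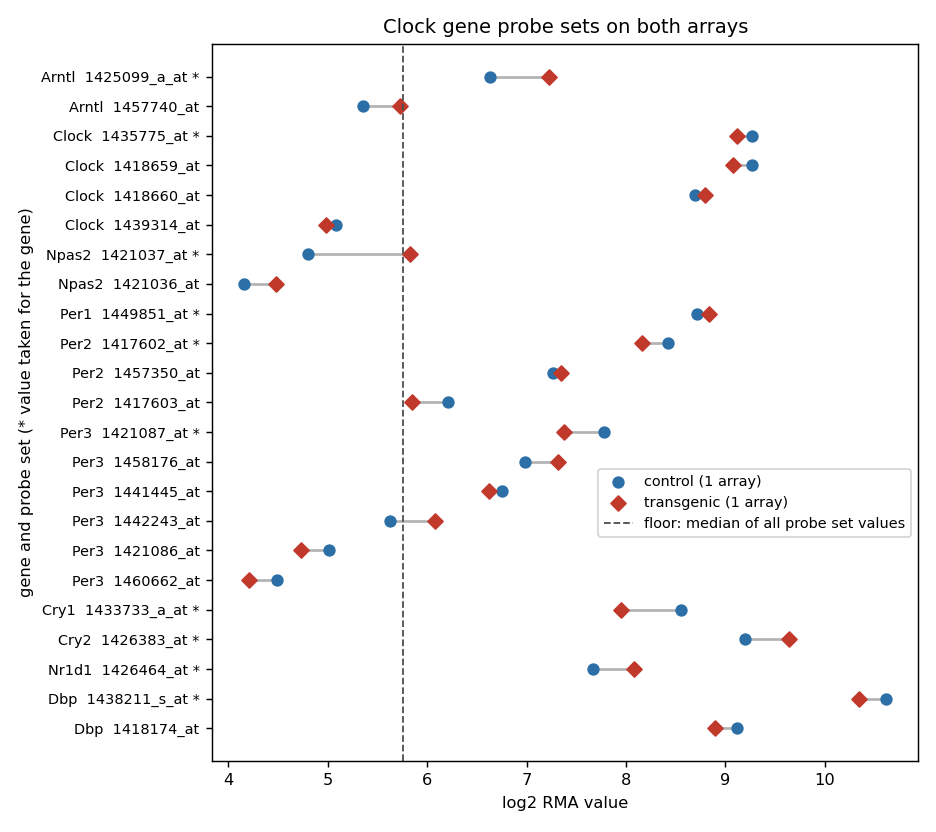
Log2 RMA values of all 23 clock gene probe sets on the transgenic (diamond) and the control array (circle), with the floor of 5.76 as a dashed line and an asterisk at the probe set taken for each gene. The widest gap is that of Npas2, from 4.80 to 5.83, which crosses the floor.

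The activators gave different values from each other. Arntl, whose product is the partner that the loop cannot do without, read 7.22 on the transgenic array and 6.64 on the control array. The difference was 0.59, and 10.8% of kept genes differed by at least as much in either direction. Its other probe set, 1457740_at, was below the floor on both arrays, at 5.73 and 5.35, and higher in the transgenic sample by 0.38. The main probe set, 1425099_a_at, is of a class that can match several transcripts of the gene.

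Npas2, which can take the place of Clock beside Arntl, read 5.83 on the transgenic array and 4.80 on the control array. The difference of 1.02 is 2.03-fold, and 2.81% of kept genes were as far apart. With a control value under the floor, array background limits this fold. The other probe set, 1421036_at, was below the floor on both arrays, with 4.48 and 4.16 and a difference of 0.31. Kept genes with 1 array below the floor, 656 in all, had a median difference of 0.26 and a central 95% from -0.91 to 1.92, and Npas2 lies inside that range.

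Clock, the usual partner of Arntl and a histone acetyltransferase, read 9.12 on the transgenic array and 9.26 on the control array, a difference of -0.15. The 2 other Clock probe sets that reached the floor gave -0.19 and 0.10, and the probe set below it gave -0.11. The sign was therefore not shared among probe sets of Clock, and 61.3% of kept genes were at least as far apart. The difference of Arntl exceeded that of Clock by 0.73, and that of Npas2 exceeded it by 1.17.

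The Per genes encode the rhythmic inhibitors of the activator pair. Per1, which also responds quickly to cAMP and glucocorticoid signals, had a single probe set with 8.84 on the transgenic array and 8.71 on the control array, a difference of 0.13. Per2, a core repressor of the loop, read 8.16 and 8.43, a difference of -0.27. Its other probe sets gave -0.37 (5.85 and 6.21, close to the floor) and 0.08 (7.35 and 7.27), so 1 of 3 had the opposite sign.

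Per3, which acts more as an output than as a pillar of the loop, read 7.38 on the transgenic array and 7.78 on the control array, a difference of -0.40. Its probe sets disagreed the most among the members. Of the 4 at the floor on at least 1 array 2 were higher and 2 lower, from -0.40 to 0.46, a range of 0.86. The highest of them, 1442243_at (6.08 and 5.63), passed the floor through its transgenic value alone. The 3 at the floor on both arrays, 1 higher and 2 lower, ran from -0.40 to 0.33, a range of 0.73. The probe set 1458176_at gave 7.31 and 6.98, a difference of 0.33 and of opposite sign to that of the main probe set. Below the floor on both arrays, 1421086_at and 1460662_at gave -0.28 each, of the same sign as the main probe set. For comparison, the 5180 genes with 2 or more probe sets at the floor had a median range of 0.28. A range can only grow with the number of probe sets, which was not matched. It was 4 for Per3, 3 each for Per2 and Clock, and 2 for Dbp. The range was 0.44 for Per2, 0.29 for Clock and 0.061 for Dbp. Of the 4 members with several such probe sets 3 held both signs. The share of all 5180 genes that held both signs was not counted.

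The Cry genes encode the direct inhibitors of the activator pair, and they stood on opposite sides of 0. Cry1, the stronger repressor, read 7.95 on the transgenic array and 8.55 on the control array. The difference of -0.60 is 1.52-fold. In either direction 10.3% of kept genes differed by at least as much, and 2.92% were further on the lower side. Cry2 read 9.64 and 9.20, a difference of 0.44. For Cry2 18.8% of kept genes were as far in either direction, and 12.4% further on the higher side. The difference of Cry2 exceeded that of Cry1 by 1.04. Each has a single probe set here, and that of Cry1, 1433733_a_at, can match several of its transcripts.

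Nr1d1, the gene of REV-ERB alpha, read 8.08 on the transgenic array and 7.67 on the control array on its single probe set. The difference of 0.41 is 1.33-fold and lies on the same side as that of Arntl, the gene that REV-ERB alpha represses. Dbp, an activator at D-boxes and among the most rhythmic transcripts of peripheral tissues, read 10.34 and 10.62, a difference of -0.28. Its other probe set gave 8.90 and 9.12, a difference of -0.22, so both were slightly lower in the transgenic sample. The main probe set of Dbp, 1438211_s_at, is of a class that can match more than 1 gene, and the other is not.

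**Figure D3:**
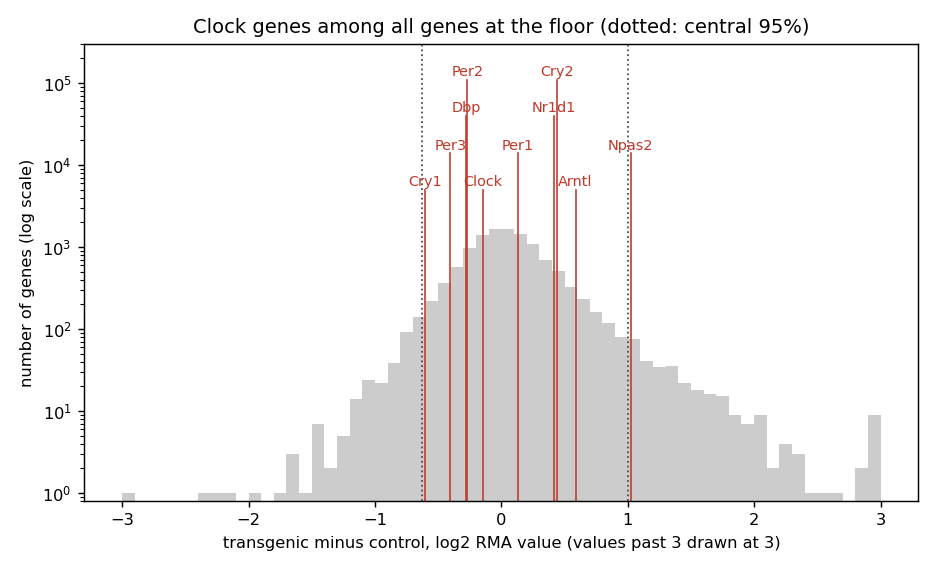
Differences of the 12143 kept genes (grey bars, number of genes on a log scale) with the 10 clock genes marked by red lines. The dotted lines bound the central 95%, from -0.63 to 1.0, and Npas2 at 1.02 is the member outside them.

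The activators were then set against Nr1d1, Dbp and the Per genes. In peripheral tissues Arntl and Npas2 peak at about opposite hours from these, which is not claimed here for Clock. A contrast of Arntl and Npas2 with them is known to vary with the time of day at which a tissue is taken. The median difference was 0.59 over Arntl, Clock and Npas2 and -0.27 over Nr1d1, Dbp, Per1, Per2 and Per3, a gap of 0.86. Of the 15 pairs of an activator with a gene of the other group, the activator had the higher difference in 13, and in 8 of 10 without Npas2, which was kept through its transgenic value alone. The exceptions were Clock against Nr1d1 and Clock against Per1. The pairs reuse the same 3 activators and 5 other genes, so they are not separate observations. The groups overlapped, since the activators ran from -0.15 to 1.02 and the others from -0.40 to 0.41.

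The size of the gap depended on Npas2 and on the settings. Without Npas2 the activators had a median of 0.22 and the gap was 0.49. With means in place of medians it was 0.57. With a floor at the 75th percentile, 7.81, Arntl, Npas2 and Per3 were no longer kept, and Clock alone against the 4 others gave -0.075. With all probe sets of a gene averaged, Npas2 fell below the floor and the gap was 0.25. Within the other group Nr1d1 and Per1 differed in sign from Dbp, Per2 and Per3. With 1 array per genotype, the hour of collection and the genotype cannot be told apart.

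**Figure D4:**
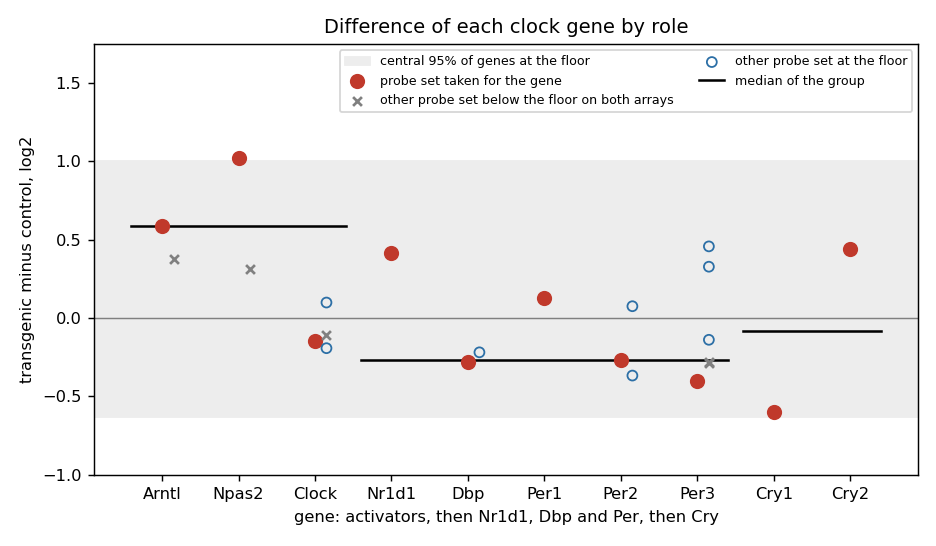
Transgenic minus control difference of each clock gene, with filled points for the probe set taken, open circles for other probe sets at the floor and crosses for those below it on both arrays. Horizontal lines are the group medians of 0.59, -0.27 and, for Cry, -0.08, and the grey band is the central 95% of kept genes.

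Related genes of the same loops gave small differences. Nr1d2, which encodes REV-ERB beta, read 11.52 on the transgenic array and 11.46 on the control array, a difference of 0.06 against 0.41 for Nr1d1. Rora, an activator at ROR elements, stood at -0.14, with 3 of its 7 other probe sets at the floor of opposite sign, from -0.49 to 0.67. Hdac3, the deacetylase that works with REV-ERB alpha, stood at -0.17. Of the 6 listed genes of this loop 3 were kept, none was 2-fold apart, 1 was higher and 2 lower, and their median was -0.14.

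Among the other D-box factors, Tef and Hlf, the relatives of Dbp, stood at -0.06 and -0.11. Other probe sets of Tef ran from -0.44 to 0.08, and that of Hlf gave 0.0038. Nfil3, the repressor that competes with Dbp at D-boxes and is itself driven through ROR elements, read 9.03 on the transgenic array and 8.61 on the control array, a difference of 0.42. Nfil3 is known to peak at the opposite hours from Dbp. Adding Nfil3 to the activators and Nr1d2, Tef, Hlf, Ciart and Usp2 to the other group, with Bhlhe41 below the floor, gave medians of 0.50 and -0.08 and a gap of 0.59.

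Of the 9 other repressors and modulators of the E-box loop 8 were kept, and none was 2-fold apart. The differences were above 0 for 3 and below 0 for 5, with a median of -0.14. Bhlhe40, a repressor that competes at E-boxes, stood at -0.33 (9.62 and 9.95), and Ciart, an inhibitor of the activator pair, at -0.27 (7.33 and 7.59). Timeless, which in mammals serves DNA replication as well, was highest of the list at 0.38, and its other probe set gave 0.25. Bhlhe41 was below the floor on both arrays, at 5.75 and 5.49.

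Kinases and ubiquitin ligases set the lifetime of the Per and Cry proteins, and none of the 9 kept was 2-fold apart. Their median was -0.08, with 3 above 0 and 6 below. Btrc, a ligase subunit that marks Per proteins for degradation, stood furthest at -0.58 (7.85 and 8.43), but 2 of its 3 other probe sets were of opposite sign. Prkaa1, the catalytic AMPK subunit that phosphorylates Cry1, stood at -0.46 (8.25 and 8.72). Usp2, a rhythmic deubiquitinase, stood at 0.04.

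Of the clock-controlled output genes 7 of 10 were kept and none was 2-fold apart, with 3 above 0, 4 below and a median of -0.06. The furthest were Pdk4, a kinase that restrains pyruvate oxidation, at 0.37 and Tspan4, a tetraspanin that cycles in many tissues, at 0.25.

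Signals that reset the clock were read through 3 further lists. Of the glucocorticoid response genes 8 of 9 were kept, 3 above 0 and 5 below, with a median of -0.08 and none 2-fold apart. Ddit4, an inhibitor of mTORC1, stood at 0.42 and Mt2, a metallothionein, at -0.58. Of the 8 genes that respond to cAMP and calcium, signals that induce Per1, 7 were below 0 and 1 above. Their median was -0.14 and none was 2-fold apart, while 54.2% of all kept genes were above 0. Fos, a subunit of AP-1, stood at -0.60 (10.75 and 11.35) and Nr4a1, an orphan nuclear receptor, at -0.27, while Per1 itself stood at 0.13.

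By the brightest probe set of each gene, the list of temperature response genes held the only pathway genes past the 2-fold rule. Of 8 kept members 3 were at least 2-fold lower and none 2-fold higher, against 0.511% and 2.51% of all kept genes. The differences were above 0 for 3 and below 0 for 5, with a median of -0.14. Hspa1a, an inducible heat shock protein, read 9.11 on the transgenic array and 10.80 on the control array, 3.23-fold lower. Its near-identical neighbour Hspa1b, with which it can share signal, read 10.54 and 11.96, 2.69-fold lower, and Dnajb1, a co-chaperone of these HSP70 proteins, read 9.11 and 10.39, 2.43-fold lower. The other probe set of Dnajb1 gave -0.45. What lies behind the lower values of Hspa1a, Hspa1b and Dnajb1 was not tested. Hspa8, also in this list, stood at -0.11, while its 3 other probe sets at the floor ran from -1.02 to 0.03. Over all 8 lists, counting each gene once, 52 of 63 genes were kept, with 18 above 0, 34 below and a median of -0.10. Among all kept genes 54.2% of differences were above 0, with a median of 0.029.

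**Figure D5:**
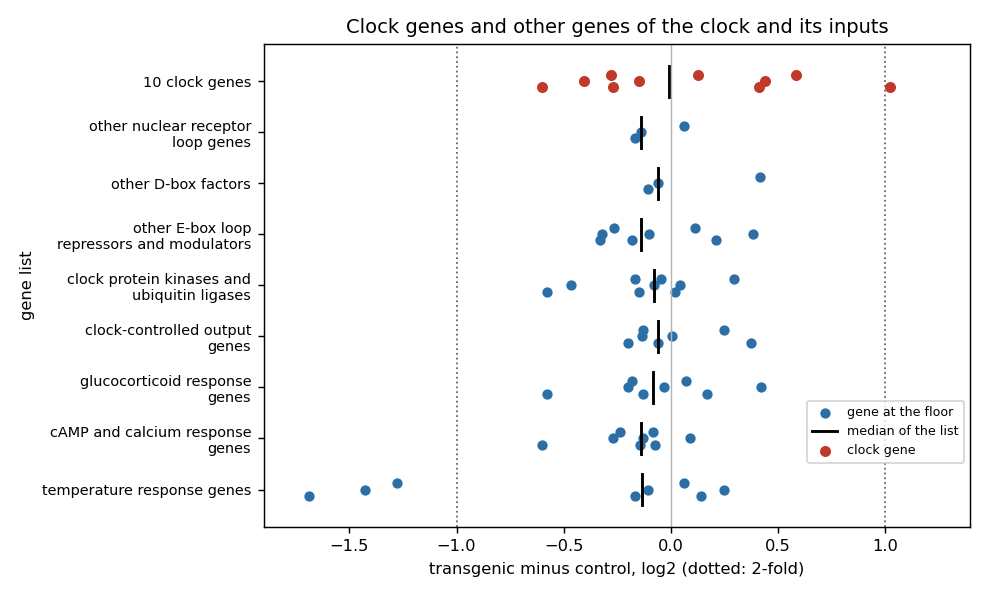
Differences of the 10 clock genes (red) and of the kept genes of 8 lists (blue), with a black bar at each median and dotted lines at 2-fold. The list medians lie between -0.14 and -0.06, and the points past 2-fold are Npas2, on the higher side, and Hspa1a, Hspa1b and Dnajb1, on the lower.

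The islet label was checked against cell type markers. Of 9 beta cell markers 7 had a probe set, all above the floor, with a median difference of -0.0083. Their differences, 3 above 0 and 4 below, ran from -0.81 for Ucn3 to 0.32 for Pdx1. The 5 kept alpha, delta and PP cell markers had 4 above 0, 1 below and a median of 0.017. Among all kept genes 54.2% of differences were above 0. Macrophage markers were higher in the transgenic sample for 12 of 12, with a median of 0.84, and their summed level, in linear RMA units over 1 probe set per gene, was 6982 against 4613. Markers of stellate cells and fibroblasts were higher for 7 of 8 kept, with a median of 0.87 and a summed level of 7277 against 3913, while Col1a1 and Pdgfra were below the floor. Acinar, ductal and endothelial markers had medians of 0.16 (4 of 4 above 0), 0.26 (3 of 3) and 0.11 (6 of 7). Lymphocyte markers had -0.14 (2 of 5), and Ptf1a, Cftr and Tie1 were below the floor. Acinar signal was strong on both arrays, with a summed level of 62628 against 56612 over the 4 kept markers. The 7 beta cell markers summed to 83222 against 84925. Sums over different probe sets give no share of cells. Clock genes are active in all these cells, and the part of other cell types in the differences of Arntl, Npas2 and Cry1 was not tested. In RNA of whole islets, fewer cells of a type and less RNA per cell cannot be told apart. All 24 probe sets of the poly-A spike controls read higher with the transgenic sample (median difference 1.51), and the part of this was not tested either.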

How the data were processed

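The authors deposited 1 log2 value per probe set and array, computed with RMA in Affymetrix Expression Console per the submitters' processing notes (no version given there). Whether other arrays were normalized with these 2 is not given. The sorted values of both columns differ by at most 0.10. The number of arrays limits the precision, and 1 array per genotype allows no test.

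Gene names came from the platform's annotation, with symbols updated by Entrez identifier to the GRCm38.p6 gene table (34741 of 34945 matched). Array controls were left out. The floor is the 50th percentile of all values. Members and lists were chosen with earlier results of these data known. Named genes were all members, 8 related genes by name, and of each list up to 4 members 2-fold apart or else the 2 furthest kept. No gene was named for a pattern like that of a member, because 2 samples give each gene a single difference. Alternatives were averaging the probe sets of a gene, dropping those of the _a, _s and _x classes, a floor at the 75th percentile or none, a lowess trend (span 0.3, statsmodels 0.14.6), a second quantile normalization, a 1.5-fold rule, the mean and leaving out each member. Scripts used Python 3.11.15, numpy 2.4.6 and pandas 2.3.3 and were tested on simulated data.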

Additional observations from a re-analysis of the deposited data

How the results depend on the processing

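No paired analysis was possible because each genotype has 1 array. The median range between probe sets of a gene, 0.28, served as the measure of a move. With probe sets averaged per gene, 0 members were 2-fold apart, the activators had a median of 0.20 and their gap to Nr1d1, Dbp and Per was 0.25. With the floor at the 75th percentile these were 0, -0.15 and -0.075, since Clock is then the activator left. A 1.5-fold rule gave 3 members, and the mean in place of the median a gap of 0.57. Leaving out each member in turn gave 0.22 to 0.81 for the activators, -0.27 to -0.07 for the other group and 0.49 to 1.07 for the gap. Dropping the _a, _s and _x classes left no kept value for Arntl and Cry1. Over the 54 values that the members had under these settings for floor, probe sets and normalization, 0 changed sign. Per3 with its probe sets averaged (-0.05) was the member that moved. Many of these values could not change, because a floor only keeps or drops a gene, and averaging leaves a gene with 1 probe set unaltered. Between probe sets of the same gene the sign did differ, since 3 of the 4 members with several at the floor held both signs. How often this holds over all genes was not counted.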

Other observations

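Probe sets shared by several genes were left out of the lists. Those of Rbm3, a cold-inducible RNA-binding protein, which also match Rbm3-ps, read 11.84 on the transgenic array and 12.00 on the control array (difference -0.16) and 6.63 and 7.02 (-0.39). Cirbp, the other cold-inducible protein of the temperature list, stood at 0.14.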
